A study of Rattus norvegicus with 28 samples.

Results

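The immediate early AP-1 and EGR factors are transcription factors whose genes respond to a stimulus without new protein synthesis, and their transcripts were followed here through 8 groups of rat lungs. The genes were chosen by symbol from a list of 10: Fos, Fosb, Fosl1, Fosl2, Jun, Junb, Jund, Egr1, Egr2 and Atf3. A row was found for 8 of the 10 among 17002 genes, and all 8 passed the filter on low values that left 14908 tested genes. Fosb and Fosl2 were not found under these symbols and are not analysed here. The 8 genes, with the Ensembl identifiers of the deposited table, were Fos (ENSRNOG00000008015), Fosl1 (ENSRNOG00000020552), Jun (ENSRNOG00000026293), Junb (ENSRNOG00000042838), Jund (ENSRNOG00000019568), Egr1 (ENSRNOG00000019422), Egr2 (ENSRNOG00000000640) and Atf3 (ENSRNOG00000003745).

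AP-1 is a pair of basic leucine zipper proteins, one of the FOS, JUN or ATF families with a JUN family partner, that binds the AP-1 site or the related cyclic AMP response element (CRE). Growth factors, cytokines, mechanical stretch and stress reach these genes through MAP kinases, which activate serum response factor (SRF) and its ternary complex partners at CArG boxes and act on JUN and ATF proteins already present in the cell. FOS and the zinc finger protein EGR1 usually appear within minutes and decline soon after, while FOSL1 is itself an AP-1 target that appears later and lasts longer. JUND is present in most resting cells, ATF3 is a stress-induced member of the ATF family, and EGR proteins are held back by the NAB corepressors.

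The series made 28 strand-specific libraries from polyadenylated RNA of lung tissue (the right upper lobe) from rats of the Sprague Dawley strain, and its title asks how variable ventilation acts in experimental lung injury. Ventilation was volume-controlled with constant tidal volumes (VCV) or with variable tidal volumes (noisy). Animals without injury formed control_blank (not ventilated, n = 3), healthy_VCV (n = 4) and healthy_noisy (n = 3). Animals ventilated after acute lung injury formed acute_VCV (n = 3) and acute_noisy (n = 4), and no acutely injured group without ventilation is among the samples. Animals with chronic lung injury formed control_chronic (not ventilated, taken 14 days after its induction, n = 5), chronic_VCV (n = 3) and chronic_noisy (n = 3). The labels used here give neither the agent that caused either injury, nor the duration of ventilation, nor ages. They speak of animals without stating that each library is a separate one, so p-values measure the spread between these libraries.

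The 250 bases before the start of 5 of the 8 genes were found among the promoter sequences of RefSeq (build GRCr8), and 4 are shown so that the letters near the start of genes that followed different patterns can be compared. Sequences run 5′ to 3′ on the strand of the gene, and capitals mark matches on either strand to the AP-1 site TGACTCA, the CRE TGACGTCA, the first bases of a CRE TGACG, the EGR sites GCGGGGGCG and GCGTGGGCG, and the CArG box. TGACG lies within every TGACGTCA.
Egr1, chr18:26736828-26737077 (+): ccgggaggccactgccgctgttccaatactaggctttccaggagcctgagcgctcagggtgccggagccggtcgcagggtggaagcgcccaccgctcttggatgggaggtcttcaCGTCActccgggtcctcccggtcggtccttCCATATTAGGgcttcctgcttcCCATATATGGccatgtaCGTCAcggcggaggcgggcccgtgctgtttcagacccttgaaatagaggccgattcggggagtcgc
Egr2, chr20:21054442-21054691 (-): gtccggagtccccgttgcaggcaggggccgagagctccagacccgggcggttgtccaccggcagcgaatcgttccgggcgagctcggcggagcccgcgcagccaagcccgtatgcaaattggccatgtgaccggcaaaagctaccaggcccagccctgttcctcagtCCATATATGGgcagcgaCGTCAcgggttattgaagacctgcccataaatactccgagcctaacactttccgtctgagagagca
Jund, chr16:18769772-18770021 (-): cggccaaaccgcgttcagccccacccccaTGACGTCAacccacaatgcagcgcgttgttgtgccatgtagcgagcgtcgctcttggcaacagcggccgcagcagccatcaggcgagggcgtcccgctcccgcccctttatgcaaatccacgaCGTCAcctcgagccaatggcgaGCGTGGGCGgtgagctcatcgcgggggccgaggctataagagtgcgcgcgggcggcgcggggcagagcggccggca
Fosl1, chr1:212183635-212183884 (+): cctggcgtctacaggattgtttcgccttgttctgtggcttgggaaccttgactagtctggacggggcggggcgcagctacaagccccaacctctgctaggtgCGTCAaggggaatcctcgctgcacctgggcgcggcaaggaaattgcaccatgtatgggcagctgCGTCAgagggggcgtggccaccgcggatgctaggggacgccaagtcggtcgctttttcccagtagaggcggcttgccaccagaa
Counted back from the start of the gene, with -1 as the last base, Egr1 had CArG boxes at -105 to -96 (CCATATTAGG) and -83 to -74 (CCATATATGG), and Egr2 had CCATATATGG at -83 to -74. A CArG box was in 1.5% of the 33469 promoters of this length. Jund had TGACGTCA at -221 to -214, a match that 1.59% of promoters held, and GCGTGGGCG at -76 to -68, which 0.478% held. TGACG stood in all 5 windows and in 18.2% of promoters. It was at 2 places in Egr1 and Fosl1, and in Jund at -98 to -94 and on both strands of TGACGTCA. In Junb (chr19:40080876-40081125, +) TGACG at -155 to -151 was the single match to this set. TGACTCA, found in 4.05% of promoters, and GCGGGGGCG, found in 2.45%, were in none of the 5 windows. A match describes letters, not a bound site.

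Libraries held 6024093 to 31923838 reads in genes, and the 8 genes had between 8 (Fosl1) and 18305 (Junb) reads in a library. Lung markers were present in every library, with the surfactant gene Sftpc at 129597 or more and the type 1 cell gene Ager at 25875 or more normalised counts. Library titles begin with a number series that was confounded with most groups: series 12 held control_blank and acute_VCV, series 18 control_chronic, series 14 chronic_noisy, 3 healthy_VCV and 2 acute_noisy libraries, and series 15 healthy_noisy, chronic_VCV, 1 healthy_VCV and 2 acute_noisy libraries. The labels do not say what the number stands for. control_blank shares a series only with acute_VCV, and control_chronic with no other group. In every other comparison with them, and in acute_VCV against healthy_VCV or acute_noisy, group and series cannot be told apart. One library, chronic_VCV_067, stood apart: it was the highest of the 28 for 6 of the 8 genes (75%), against 633 of all 14908 tested genes (4.25%). Calls that involve chronic_VCV are therefore given with and without it. Summed neutrophil markers (8 of 11 found) ran from 1357 to 3740 in the unventilated groups (control_blank and control_chronic) and from 11891 to 140331 in the ventilated groups. In whole tissue, fewer cells of a type and less RNA per cell cannot be told apart.

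Values are normalised counts, reads divided by a size factor of the library, and are listed in the order of the library numbers in the titles. Differences are in log2(value + 1) with their standard error, from limma fitted to all libraries, with Benjamini-Hochberg adjustment over the 14908 genes and a threshold of 0.05. Genes past it are said to have risen or fallen. Levels of different genes are not compared, since transcript lengths were not used. Every group is plotted library by library in the plot of values by group.

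**Figure D1:**
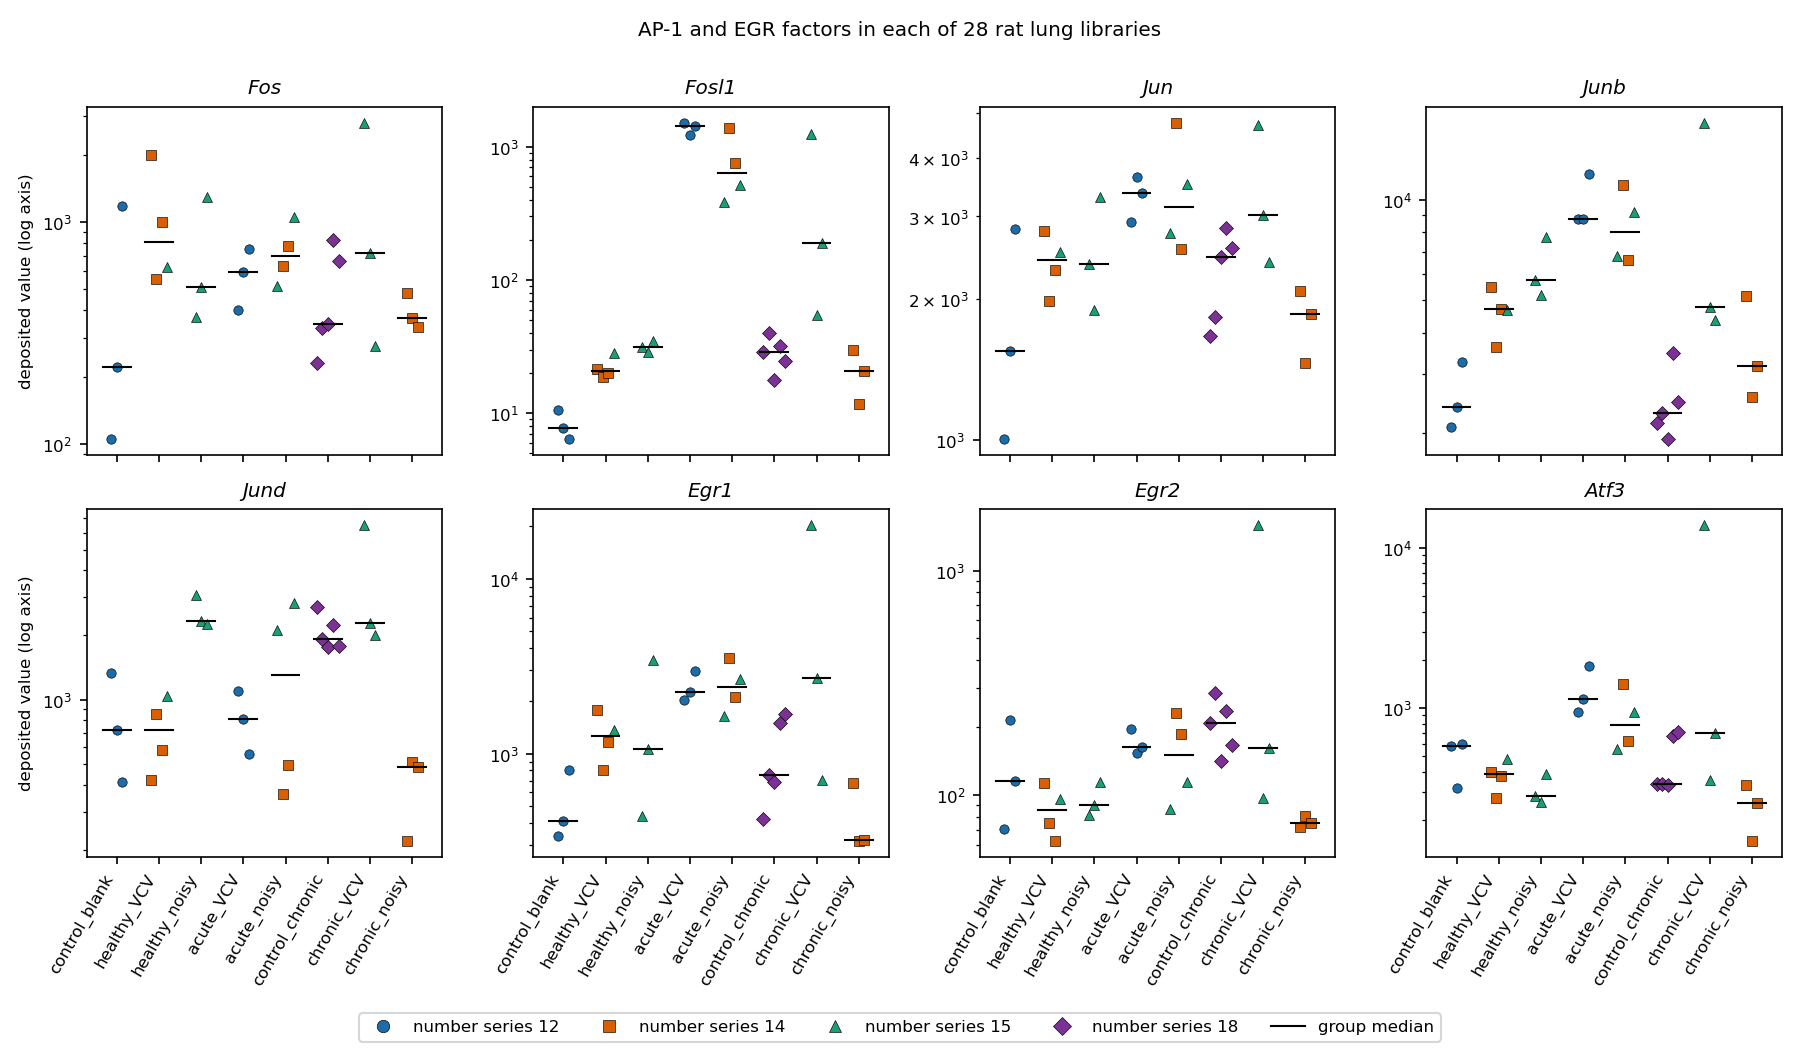
Normalised counts (log axis) of the 8 genes, 1 panel for each gene, in the 28 libraries by group. Each point is 1 library and each bar the group median. Fosl1 lies between 383 and 1515.3 in the 7 acute libraries and at 34.8 or lower in the 10 uninjured libraries, and chronic_VCV_067 tops the panels of Fos, Junb, Jund, Egr1, Egr2 and Atf3.

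Fosl1 was the member with the widest range, from 6.39 to 1515.3. It encodes FRA-1, a FOS protein that lacks the strong activation domain of FOS itself. In control_blank its values were 10.5, 7.74 and 6.39, in healthy_VCV 21.5, 18.8, 20.1 and 28.4, and in healthy_noisy 31.4, 28.9 and 34.8. The acute groups were far higher, with 1515.3, 1235 and 1441 in acute_VCV and 383, 1379, 749.9 and 519 in acute_noisy. The lowest acute library, at 383, lay above the highest uninjured one, at 34.8. After chronic injury the values were 28.6, 39.6, 17.8, 32.0 and 24.6 in control_chronic and 29.8, 11.7 and 20.7 in chronic_noisy. chronic_VCV spread most widely, with 1248, 54.8 and 189, and its lowest value was still above the highest of healthy_noisy. In the order of group means, from acute_VCV down through acute_noisy, chronic_VCV, healthy_noisy, control_chronic, healthy_VCV and chronic_noisy to control_blank, neighbours overlapped except chronic_VCV with healthy_noisy and chronic_noisy with control_blank.

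Fosl1 rose in acute_VCV over control_blank by 7.26 ± 0.64 (adjusted p = 1.88e-07), 154-fold on the log2(value + 1) scale, and both groups belong to series 12. In acute_noisy it rose over control_blank by 6.22 ± 0.60 (adjusted p = 1.27e-07). Ventilated uninjured lungs gave the background of ventilation alone: Fosl1 rose by 5.92 ± 0.60 (adjusted p = 6.99e-08) in acute_VCV over healthy_VCV and by 4.37 ± 0.60 (adjusted p = 0.000123) in acute_noisy over healthy_noisy. These 4 calls held in every alternative run, with lowest values of 6.27, 5.24, 5.45 and 3.78 respectively. acute_noisy shares no series with control_blank, nor acute_VCV with healthy_VCV, so in these comparisons group and series cannot be told apart. The series covariate was not run for them. Neutrophil markers summed to 35940 to 140331 in acute_VCV and 22729 to 99065 in acute_noisy, against 2822 to 3740 in control_blank. In the ventilated uninjured groups they summed to 19094 to 36474 (healthy_VCV) and 24237 to 31527 (healthy_noisy). Mesothelial markers (4 of 4 found) were also higher in acute_VCV, 15829 to 22589, than in control_blank, 8362 to 14565, and overlapped control_blank in acute_noisy, 10726 to 13928. They were 5718 to 7643 in healthy_VCV and 6727 to 9871 in healthy_noisy, with no overlap with the acute group of the same mode. Smooth muscle and pericyte markers (4 of 7 found) were 16048 to 25800 in acute_VCV, 10768 to 11735 in healthy_VCV and 20108 to 28273 in control_blank. The part of other cell types in the Fosl1 result was not tested.

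Constant ventilation of chronically injured lungs went with a further rise, between groups that share no series. Fosl1 rose in chronic_VCV over control_chronic by 3.05 ± 0.57 (adjusted p = 0.00137), and by 1.85 without chronic_VCV_067 (adjusted p = 0.00765). With variable ventilation the same step was -0.49 ± 0.57 (adjusted p = 0.519), which did not pass the threshold. In uninjured lungs Fosl1 rose with variable ventilation by 1.85 ± 0.64 (adjusted p = 0.0308), a call lost at a pseudocount of 10 (1.20, adjusted p = 0.121), with quantile normalisation, with edgeR and with each library left out in turn. With constant ventilation it was 1.34 ± 0.60 (adjusted p = 0.0585), and in unventilated chronic injury 1.66 ± 0.57 (adjusted p = 0.0518), with no overlap of the libraries in either case.

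Fos, the founding member of the family and the partner that gives AP-1 its strongest activity, did not pass the limma threshold in any of the 14 comparisons of groups. The unadjusted p was below 0.05 in 1 of them, and neither edgeR nor DESeq2 on the recovered reads called any. Values in control_blank were 105, 222 and 1177, so that 1 unventilated library matched the ventilated ones. In healthy_VCV they were 1989.6, 551, 998 and 629, in healthy_noisy 374, 510.1 and 1296, in acute_VCV 401.2, 596 and 756 and in acute_noisy 514, 633, 777 and 1054. The groups overlapped throughout. In control_chronic the values were 232, 331, 348, 829.4 and 663, in chronic_VCV 2787, 723 and 276 and in chronic_noisy 479, 368 and 337. The comparisons with control_blank changed without its library numbered 074. Without it Fos was called higher in healthy_VCV (2.57, adjusted p = 0.00232), healthy_noisy (2.03, adjusted p = 0.0277), acute_VCV (1.88, adjusted p = 0.0387) and acute_noisy (2.22, adjusted p = 0.00663). In healthy_VCV it was also called without the healthy_VCV library numbered 057 (1.83, adjusted p = 0.0405) or 062 (1.76, adjusted p = 0.049). With all libraries these 4 differences were 1.59 ± 0.69 (adjusted p = 0.0513), 1.05 ± 0.73 (adjusted p = 0.278), 0.90 ± 0.73 (adjusted p = 0.348) and 1.25 ± 0.69 (adjusted p = 0.12).

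The balance of the 2 FOS genes is shown by the reads of Fosl1 divided by those of Fos within a library, a ratio in which the size factor cancels but which is not a ratio of molecules. It ran from 1.91 to 3.78 in acute_VCV and from 0.493 to 2.18 in acute_noisy. In control_blank it was 0.00543 to 0.1, in healthy_VCV 0.0108 to 0.0452 and in healthy_noisy 0.0268 to 0.0839. The acute groups did not overlap any uninjured group. In control_chronic it was 0.0372 to 0.123, in chronic_noisy 0.0317 to 0.0621 and in chronic_VCV 0.0757 to 0.683, so that chronic_VCV reached the lower end of acute_noisy.

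**Figure D2:**
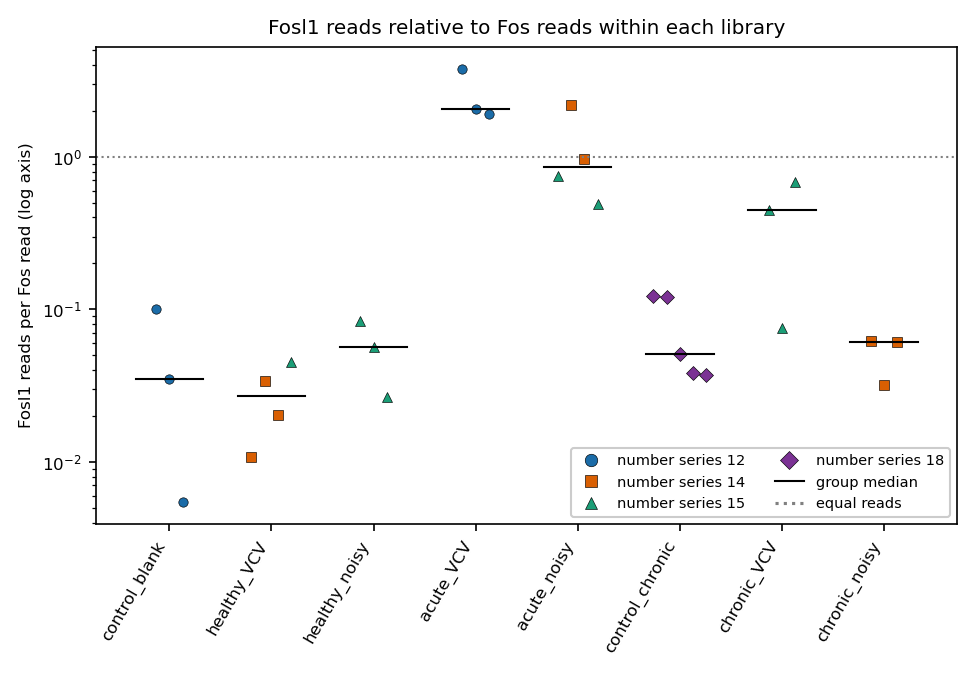
Reads of Fosl1 divided by reads of Fos (log axis) in each of the 28 libraries, by group. The 3 acute_VCV libraries lie between 1.91 and 3.78 and the 4 acute_noisy libraries between 0.493 and 2.18, above the 3 control_blank libraries at 0.1 or lower.

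Junb, a JUN protein that restrains JUN in many settings and is induced with FOS, was the member raised in the most comparisons after Fosl1. In control_blank its values were 2085, 2386 and 3272 and in control_chronic 2145, 2294, 1914, 3476 and 2473, the lowest groups. Ventilated uninjured lungs had 5480.1, 3632, 4713 and 4689.6 in healthy_VCV and 5739.6, 5200.2 and 7757 in healthy_noisy, all above control_blank. The acute groups were higher again, with 8801, 8807 and 11965 in acute_VCV and 6807, 11144, 6611 and 9214 in acute_noisy. Each of the 7 acute libraries was above each healthy_VCV library, but acute_noisy overlapped healthy_noisy. In chronic_VCV the values were 17086, 4787 and 4367 and in chronic_noisy 5153, 2557 and 3163.

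Junb rose over control_blank by 0.85 ± 0.34 (adjusted p = 0.0333) in healthy_VCV, 1.28 ± 0.36 (adjusted p = 0.01) in healthy_noisy, 1.94 ± 0.36 (adjusted p = 0.000229) in acute_VCV and 1.70 ± 0.34 (adjusted p = 0.000178) in acute_noisy. Of these groups only acute_VCV shares a series with control_blank. The calls in acute_VCV and acute_noisy held in every alternative. That in healthy_VCV was lost in 5 of the fits that left out a library, for example without the control_blank library numbered 016 (0.71, adjusted p = 0.134), and that in healthy_noisy without the same library (1.14, adjusted p = 0.0535). Between acute and no injury under constant tidal volumes, Junb rose by 1.09 ± 0.34 (adjusted p = 0.00882) in acute_VCV over healthy_VCV. These 2 groups share no series. Under variable tidal volumes the same difference was 0.43 ± 0.34 (adjusted p = 0.347). The limma test of whether the mode effect differed between acute and no injury did not pass for Junb (-0.67, adjusted p = 0.275). Junb also rose in chronic_VCV over control_chronic by 1.56 ± 0.32 (adjusted p = 0.00269), and by 0.92 without chronic_VCV_067 (adjusted p = 0.0221).

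Jun, the JUN protein with the strongest activation domain, varied least of the 8 genes, from 1004 to 4755. In control_blank it was 1004, 1545 and 2819, and the library at 2819 is the one that was also high in Fos. In acute_VCV the values were 2919, 3637 and 3363 and in acute_noisy 2764, 4755, 2552 and 3524. The acute_VCV libraries all lay above control_blank, and acute_noisy overlapped it. Jun rose over control_blank by 1.01 ± 0.30 (adjusted p = 0.0118) in acute_VCV and by 1.01 ± 0.28 (adjusted p = 0.00404) in acute_noisy. Both calls were lost without the control_blank library numbered 016, at 0.66 in each (adjusted p = 0.108 and 0.0625). In healthy_VCV Jun ran from 1980.4 to 2795, in healthy_noisy from 1889.8 to 3299, in control_chronic from 1668 to 2831, in chronic_VCV from 2393 to 4698 and in chronic_noisy from 1462 to 2083.7. None of the comparisons among these passed the threshold, the largest being variable against constant ventilation after chronic injury at -0.86 ± 0.30 (adjusted p = 0.105).

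Jund, the JUN protein of resting cells, followed another order. In control_blank its values were 1326, 719.7 and 413, in healthy_VCV 425, 859.6, 580.0 and 1041 and in acute_VCV 1098, 809 and 559. Higher values stood in healthy_noisy, with 3061, 2312 and 2247, in control_chronic, with 2714, 1919, 1768, 2227 and 1772, and in chronic_VCV, with 6507, 2274 and 2010.2. chronic_noisy was lowest, with 219, 513 and 484. acute_noisy was split, with 2106, 363, 495 and 2825: the first and last are of series 15, the other 2 of series 14. Jund rose in healthy_noisy over control_blank by 1.78 ± 0.59 (adjusted p = 0.0256) and over healthy_VCV by 1.87 ± 0.55 (adjusted p = 0.0404), and in chronic_VCV over healthy_VCV by 2.17 ± 0.55 (adjusted p = 0.0447). It fell in chronic_noisy, with differences of -2.43 ± 0.53 (adjusted p = 0.00156) from control_chronic, -2.73 ± 0.59 (adjusted p = 0.0265) from healthy_noisy and -3.03 ± 0.59 (adjusted p = 0.0149) from chronic_VCV. The call against control_chronic held in every alternative run, and that of healthy_noisy against control_blank was lost in 3 of the fits that left out a library.

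These Jund differences moved with the number series. Across all groups Jund ran from 413 to 1326 in series 12 (6 libraries), 219 to 859.6 in series 14 (8 libraries), 1041 to 6507 in series 15 (9 libraries) and 1768 to 2714 in series 18 (5 libraries). Series 14 and 15 did not overlap. Within acute_noisy, which holds libraries of both, Jund was higher in series 15 by 2.52 ± 0.51 (adjusted p = 0.00278), and over acute_noisy and healthy_VCV together by 1.79 ± 0.42 (adjusted p = 0.0442). Within healthy_VCV alone it was 0.80 ± 0.59 (adjusted p = 1). The other 7 members passed in none of the 3. Of all tested genes, 1741 were higher and 1438 lower in series 15 within acute_noisy, 90 higher and 81 lower over both groups, and 0 either way within healthy_VCV by limma, with 119 at an unadjusted p below 0.05. With the series as a covariate the difference between healthy_noisy and healthy_VCV was 0.53 (adjusted p = 0.698), that between chronic_VCV and healthy_VCV 0.84 (adjusted p = 0.517), that between chronic_noisy and healthy_noisy -0.94 (adjusted p = 0.701) and that between chronic_noisy and chronic_VCV -1.24 (adjusted p = 0.486). chronic_noisy and control_chronic share no series with each other, nor do healthy_noisy and control_blank, so in these comparisons group and series cannot be told apart.

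Jund was read with a second set of genes that also differed between the number series. Markers of the cardiac muscle that sheathes the pulmonary veins (6 of 8 found, summed) ran from 6061 to 16874 in series 12 and 2013 to 9106 in series 14. They were lower in series 15, 231 to 1739, and in series 18, 880 to 1221, with no overlap. Jund did not split the libraries in the same way. Its values in series 14 lay below those of series 15 and 18. In series 12, at 413 to 1326, Jund overlapped series 15, at 1041 to 6507. The part of cardiac muscle in the Jund result was not tested. The tested genes most like Jund over the 28 libraries were Serinc4 (Pearson r = 0.951), Agxt2l2 (0.947), Gins2 (0.94), Slc24a5 (0.935) and Lrsam1 (0.934), and with the group means removed Nkx6-2 (0.932), Slc39a5 (0.928) and Ptger1 (0.925). These correlations describe libraries that share series and depth.

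**Figure D3:**
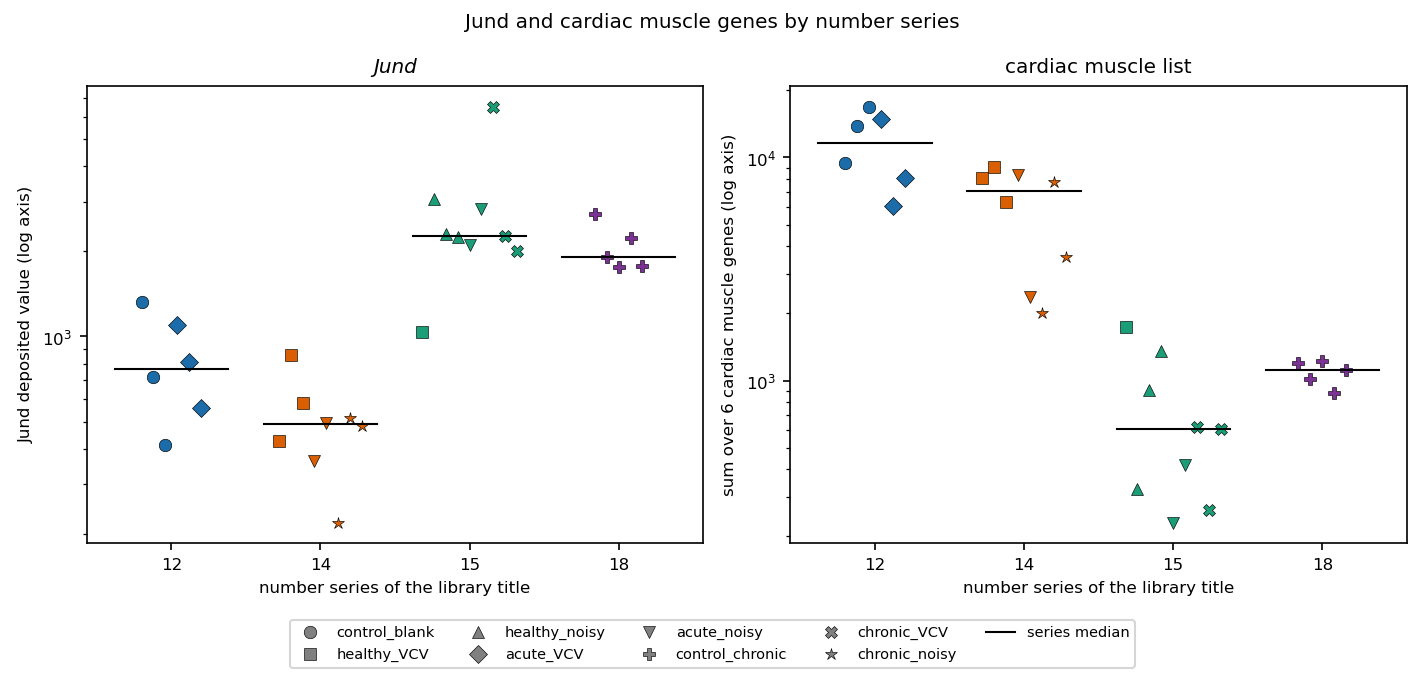
Jund (normalised counts, log axis) and the summed cardiac muscle markers (log axis) in each library by number series. Colour gives the series and marker shape the group. Jund in series 15 lies between 1041 and 6507, above the 8 libraries of series 14 at 859.6 or lower, and the cardiac sum is lower in series 15 and 18 than in series 12 and 14.

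Egr1, a zinc finger factor that responds to stretch, growth factors and hypoxia, had its lowest group means in chronic_noisy and control_blank. Its values were 336, 412 and 807 in control_blank and 419, 751, 683, 1494 and 1676 in control_chronic. Ventilated uninjured lungs had 1778, 805, 1161 and 1366 in healthy_VCV and 439, 1066 and 3418 in healthy_noisy. The healthy_noisy libraries spread widely and overlapped control_blank. Against control_blank these were 1.35 ± 0.74 (adjusted p = 0.121) and 1.28 ± 0.79 (adjusted p = 0.217), which did not pass. Acute libraries lay closer together, with 2012, 2234 and 2969.6 in acute_VCV and 1643, 3524, 2107 and 2668 in acute_noisy. Egr1 rose over control_blank by 2.30 ± 0.79 (adjusted p = 0.0249) in acute_VCV and by 2.31 ± 0.74 (adjusted p = 0.00983) in acute_noisy, higher in 3 of 3 and 4 of 4 libraries. The second call held in every alternative, and the first was lost in 4 of the fits that left out a library (adjusted p = 0.0548 to 0.0872). acute_noisy and control_blank share no series. In acute_VCV against healthy_VCV the libraries did not overlap, but the difference of 0.95 ± 0.74 (adjusted p = 0.29) missed the threshold. chronic_VCV held the most extreme library, with 20309.8, 2716 and 710.01, and chronic_noisy had 682, 315 and 322. Against control_chronic the differences were 1.94 ± 0.70 (adjusted p = 0.0631) and -1.10 ± 0.70 (adjusted p = 0.22), which did not pass.

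Egr2, a close relative of Egr1 with a role in T cells, macrophages and myelin, stayed between 62.2 and 284 in 27 libraries. The exception was chronic_VCV_067 at 1598, beside 97.4 and 162 in the other chronic_VCV libraries. Values in control_chronic were 209.7, 284, 141, 237 and 167 and in chronic_noisy 72.2, 80.8 and 74.8, with no overlap. Egr2 fell in chronic_noisy against control_chronic, by the single Egr2 call in 14 comparisons: -1.40 ± 0.55 (adjusted p = 0.047). That call was lost in 10 alternatives (adjusted p = 0.0523 to 0.148). Acute groups ran from 153 to 197 in acute_VCV and 86.6 to 232 in acute_noisy, against 70.5 to 217 in control_blank, and did not pass the threshold.

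Atf3, a stress-induced factor that pairs with JUN proteins and often represses its targets, had values of 949.6, 1143 and 1839 in acute_VCV and 553, 1422, 623 and 944 in acute_noisy. In healthy_VCV they were 403, 277, 379 and 481, in healthy_noisy 285, 262 and 388 and in control_blank 578, 318 and 594. Every acute library was above every ventilated uninjured library, whereas control_blank overlapped acute_noisy. Atf3 rose in acute_VCV over healthy_VCV by 1.74 ± 0.71 (adjusted p = 0.0427), a call lost in 7 of the fits that left out a library and with quantile normalisation. The matching difference under variable ventilation was 1.42 ± 0.71 (adjusted p = 0.132). In control_chronic the values were 337, 335, 332, 669.5 and 707, in chronic_noisy 329.5, 148 and 256, and in chronic_VCV 13865, 358 and 696. The library chronic_VCV_067 was 19.9-fold above the next chronic_VCV library in Atf3, the widest such gap of the 8 genes.

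Counted over the 8 genes, ventilation of uninjured lungs against control_blank raised 1 with constant tidal volumes (Junb), where 29.3% of all tested genes were higher and 28.1% lower, and 3 with variable tidal volumes (Fosl1, Junb and Jund), where 17.5% of all tested genes were higher and 14.6% lower. The median difference of the 8 genes was 0.70 and 1.16, against -0.03 and 0.01 over all tested genes. Acute injury with constant ventilation raised 4 against control_blank (Fosl1, Jun, Junb and Egr1), where 20.6% of all tested genes were higher and 16.7% lower, and with variable ventilation the same 4, where 31.3% of all tested genes were higher and 28.4% lower. Median differences were 1.20 and 1.13. The comparisons with control_blank share that group. No member was lower in any of the 4.

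Against ventilated uninjured lungs, acute injury raised 3 of 8 under constant ventilation (Fosl1, Junb and Atf3), where 26.1% of all tested genes were higher and 26.4% lower. Under variable ventilation it raised 1 (Fosl1), where 12.9% of all tested genes were higher and 13.9% lower. The count of 3 of 8 under constant ventilation stands near the background, and so does the count of 1 of 8 under variable ventilation. Variable against constant ventilation after acute injury called 0 of 8 by limma, 0 by unadjusted p, 0 by edgeR and 0 by DESeq2, while 11.9% of all tested genes were higher and 12.3% lower. For Fosl1 that difference was -1.04 ± 0.60 (adjusted p = 0.201), with a 95% interval of -2.28 to 0.19, and for Egr1 0.01 ± 0.74 (adjusted p = 0.994), with an interval of -1.51 to 1.53. Both intervals span 0.

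Chronic injury without ventilation called 0 of 8 by limma, with 2 at an unadjusted p below 0.05 (Fosl1 and Jund), 0 by edgeR and 2 by DESeq2, while 9.3% of all tested genes were higher and 5.55% lower. Constant ventilation of chronically injured lungs raised 2 (Fosl1 and Junb), where 6.89% of all tested genes were higher and 7.9% lower. With variable ventilation 2 fell (Jund and Egr2) and none rose, where 19.1% of all tested genes were higher and 18.1% lower. Chronic against no injury raised 2 under constant ventilation (Fosl1 and Jund), where 1.64% of all tested genes were higher and 0.818% lower. Without chronic_VCV_067 these were 2.16 for Fosl1 (adjusted p = 0.0855) and 1.64 for Jund (adjusted p = 0.261). Under variable ventilation 1 fell (Jund), where 2.27% of all tested genes were higher and 2.42% lower. Variable against constant ventilation of uninjured lungs raised 1 (Jund), where 4.31% of all tested genes were higher and 6.01% lower.

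**Figure D4:**
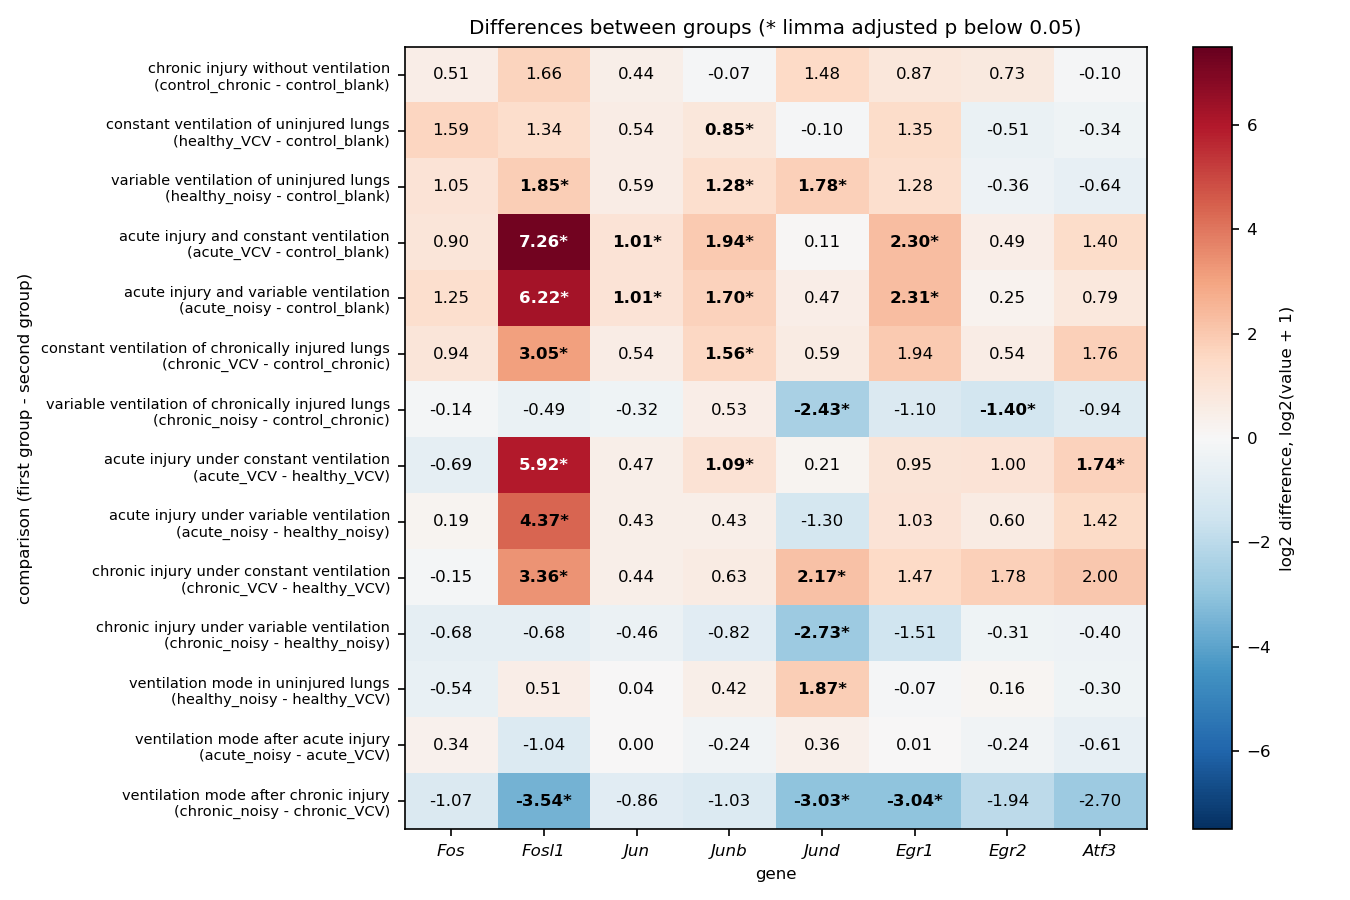
Differences in log2(value + 1) of the 8 genes in the 14 comparisons of groups, colour giving size and direction and a mark the limma adjusted p below 0.05. Fosl1 is marked in 8 comparisons and Fos in none.

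The median difference of the 8 genes was widest for ventilation mode after chronic injury, and its calls changed with the libraries and the fit. In chronic_noisy against chronic_VCV 3 of 8 fell, Fosl1 by -3.54 ± 0.64 (adjusted p = 0.0122), Jund by -3.03 ± 0.59 (adjusted p = 0.0149) and Egr1 by -3.04 ± 0.79 (adjusted p = 0.0416), where 0.563% of all tested genes were higher and 1.86% lower. The median was -2.32, against 0.02 over all tested genes, and the fitted difference was negative for all 8. Without chronic_VCV_067 limma called 0 of 8, with 4 at an unadjusted p below 0.05 (edgeR and DESeq2 were not run without it), and the differences were -2.34 for Fosl1 (adjusted p = 0.0638), -2.49 for Jund (adjusted p = 0.116) and -1.76 for Egr1 (adjusted p = 0.277). The 95% intervals without it were -3.31 to -1.36 for Fosl1, -3.79 to -1.19 for Jund and -3.14 to -0.37 for Egr1, and -2.01 to -0.20 for Atf3, none of which reached 0. Over all tested genes the same comparison called 84 higher and 278 lower with the library and 1 higher and 7 lower without it. The groups are of different series, and with the series as a covariate limma called 0 of the 8, with 6 at an unadjusted p below 0.05. The count was also 0 with the compared groups alone and without the chronic_noisy library numbered 079 or 084. The shares of all tested genes called with the covariate and in these fits are not given here. Their counts of 0 are therefore not read as a result about the 8 genes.

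**Figure D5:**
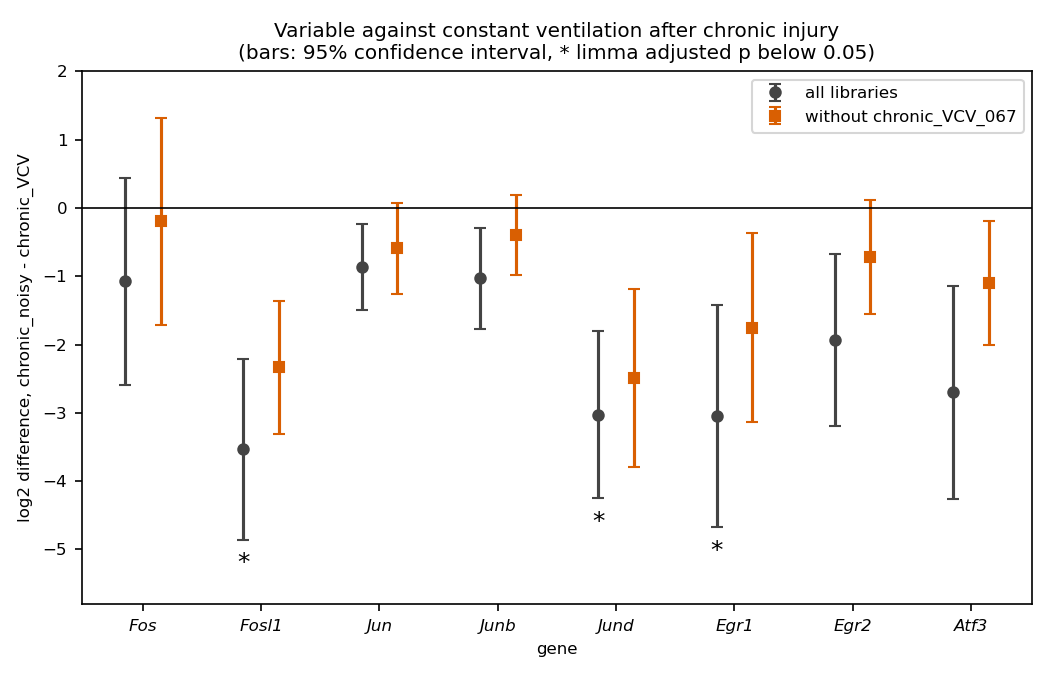
Difference chronic_noisy minus chronic_VCV in log2(value + 1) for the 8 genes with 95% intervals, with all libraries and without chronic_VCV_067. Asterisks mark an adjusted p below 0.05. Fosl1 moves from -3.54 to -2.34 and Egr1 from -3.04 to -1.76 when the library is left out.

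The effect of mode itself differed between chronic injury and no injury for 4 of the 8 genes by the test of the difference, where 29.7% of all tested genes passed in either direction. Values were -4.04 ± 0.88 (adjusted p = 0.00324) for Fosl1, -1.46 ± 0.49 (adjusted p = 0.029) for Junb, -4.90 ± 0.81 (adjusted p = 0.00075) for Jund and -2.98 ± 1.08 (adjusted p = 0.0401) for Egr1. A negative value means that variable minus constant ventilation was lower after chronic injury than without injury. Without chronic_VCV_067 Fosl1 (-2.84, adjusted p = 0.00739) and Jund (-4.37, adjusted p = 0.00353) passed, and Junb (-0.82, adjusted p = 0.117) and Egr1 (-1.69, adjusted p = 0.171) did not. With the series as a covariate Fosl1 was -4.87 (adjusted p = 0.131) and Jund -1.78 (adjusted p = 0.431). The effect of variable ventilation differed between chronic and no injury for Jund, by -4.21 ± 0.80 (adjusted p = 0.00405), where 2.66% of genes passed. For acute against no injury the mode effect differed for 0 of 8 by limma, 0 by unadjusted p, edgeR and DESeq2, where 39% of genes passed. For constant ventilation, chronic minus none, limma called 0, with 1 at an unadjusted p below 0.05, 2 by edgeR and 3 by DESeq2, where 23.9% passed.

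The library chronic_VCV_067 was above the higher of the other chronic_VCV libraries by 3.86-fold in Fos, 6.62-fold in Fosl1, 1.55-fold in Jun, 3.57-fold in Junb, 2.86-fold in Jund, 7.48-fold in Egr1, 9.87-fold in Egr2 and 19.9-fold in Atf3. The 8 genes were thus raised together in it, Jun least. It was also the highest of 28 libraries for 17 of 38 other immediate early genes (44.7%), 4 of 20 other basic leucine zipper partners (20%) and 2 of 3 EGR family and NAB genes. For genes known to carry AP-1 or EGR sites that was 1 of 25 (4%), and for SRF, ternary complex and MAP kinase genes 1 of 19 (5.26%). Its neutrophil markers summed to 25355, against 11891 and 17263 in the other chronic_VCV libraries, and its club cell markers (4 of 7 found) to 390626, against 150826 and 178849. Ciliated cell markers (6 of 7 found) summed to 16204, against 8625 and 10675, and erythroid markers (3 of 7 found) to 45783, against 14252 and 22304. Other sums were lowest in chronic_VCV_067: alveolar type 2 markers at 500401, against 533117 and 557690, and alveolar type 1 markers at 97274, against 99751 and 120419. Macrophage and monocyte markers lay between, at 177596 against 236881 and 140485. The part of these markers in the result was not tested.

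Partners and regulators of these genes were followed by 5 lists drawn from general knowledge of the pathway. The lists were chosen with earlier results of these data known, so their counts are a description and not an independent test. Of 38 tested other immediate early genes, 23 rose in acute_VCV over control_blank and none fell, with a median of 1.03, where 20.6% of all tested genes were higher and 16.7% lower. They included Socs3 (3.90 ± 0.40), a brake on cytokine signalling, Maff (2.63 ± 0.30), a small MAF protein, and Trib1 (2.40 ± 0.37). In acute_noisy 22 rose and none fell, again with Socs3 (3.98 ± 0.37), Trib1 (2.73 ± 0.35) and Maff (2.22 ± 0.28) highest, where 31.3% of all tested genes were higher and 28.4% lower. Ventilation alone raised 8 and lowered 2 in healthy_VCV, where Socs3 rose by 2.59 ± 0.37 and the matrix-signalling gene Ctgf fell by 1.51 ± 0.23, and raised 9 and lowered 1 in healthy_noisy. Over all tested genes 29.3% were higher and 28.1% lower in healthy_VCV, and 17.5% and 14.6% in healthy_noisy. Between acute_VCV and healthy_VCV 22 rose and 1 fell, where 26.1% of all tested genes were higher and 26.4% lower, led by Cyr61 (2.95 ± 0.48), Gadd45g (2.59 ± 0.29) and Ctgf (2.43 ± 0.23). After chronic injury 8 fell with variable against constant ventilation, among them Maff (-1.36 ± 0.30), Ier3 (-1.34 ± 0.36) and Ctgf (-1.32 ± 0.25), where 1.86% of all tested genes were lower. Without chronic_VCV_067 1 was called, Ctgf (-1.55, adjusted p = 0.0294). With the series as a covariate and all libraries, Ctgf was at -1.27 (adjusted p = 0.142) and did not pass.

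Of 25 tested genes known to carry AP-1 or EGR sites, 19 rose and 1 fell in acute_VCV over control_blank, with a median of 2.50, where 20.6% of all tested genes were higher and 16.7% lower. Krt17, a keratin of stressed epithelium, rose by 7.45 ± 0.81, from 18.2 to 102 in control_blank to 7180 to 9031 in acute_VCV. Il6 rose by 7.02 ± 1.28 and Il8rb, a chemokine receptor that neutrophils carry, by 5.16 ± 0.65, while Vegfa fell by 0.98 ± 0.25. In acute_noisy 18 rose and 2 fell, where 31.3% of all tested genes were higher and 28.4% lower. In healthy_VCV 4 rose and 5 fell, smaller shares than the 29.3% and 28.1% over all tested genes, with Il8rb at 5.09 ± 0.61 and Krt17 at -2.23 ± 0.76, and neutrophil sums were raised there too. Constant ventilation after chronic injury raised 7 and lowered none, among them Il8rb (3.41 ± 0.58) and Mmp9 (3.17 ± 0.56), where 6.89% of all tested genes were higher. Without chronic_VCV_067 5 were higher, with Il8rb at 3.44 (adjusted p = 0.0029) and Mmp9 at 2.85 (adjusted p = 0.00616). The list says nothing of which factor binds in these lungs.

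For the counts that follow, the shares of all tested genes were 20.6% higher and 16.7% lower in acute_VCV, 31.3% and 28.4% in acute_noisy, and 29.3% and 28.1% in healthy_VCV. Among 20 other basic leucine zipper genes, 10 rose and none fell in acute_VCV over control_blank, with Batf2 (2.23 ± 0.59) and Batf (2.07 ± 0.49) next to Maff. In acute_noisy 15 rose and none fell, among them Batf (2.28 ± 0.46). In healthy_VCV 13 rose and 2 fell, led by Bach1 (2.28 ± 0.33). Of 19 tested SRF, ternary complex and MAP kinase genes, 8 rose and 2 fell in acute_VCV: Srf rose by 0.80 ± 0.28, the MAP kinase kinase Map2k3 by 0.84 ± 0.16 and the SRF coactivator Mkl1 by 0.76 ± 0.18, while Map2k6 fell by 2.30 ± 0.42. In acute_noisy 11 rose and 3 fell, with Map3k1 at 1.79 ± 0.28. Srf was among 2 that fell with variable against constant ventilation after chronic injury (-1.10 ± 0.28), where 0.563% of all tested genes were higher and 1.86% lower. Without chronic_VCV_067 limma called 0 of the list (4 at an unadjusted p below 0.05), and Srf was at -0.52 (adjusted p = 0.194). Few of all tested genes were called in that fit, as given above. Of the EGR corepressors, Nab1 rose over control_blank in acute_VCV (0.78 ± 0.22), acute_noisy (1.30 ± 0.21), healthy_VCV (0.98 ± 0.21) and healthy_noisy (0.58 ± 0.22), and over control_chronic in chronic_noisy (0.53 ± 0.20). Nab2 was higher in healthy_noisy than in healthy_VCV (1.00 ± 0.32). It rose in chronic_VCV over control_chronic (0.93 ± 0.31) and fell in chronic_noisy against chronic_VCV (-1.66 ± 0.34), at 0.31 (adjusted p = 0.414) and -1.04 (adjusted p = 0.116) without chronic_VCV_067.

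Likeness of pattern was measured as Pearson r of log2 values over the 28 libraries against 10831 tested genes with a symbol, as a description. Fosl1 was most like Myc (0.96), Epha2 (0.954), Phlda1 (0.941), Pprc1 (0.935) and Itpkc (0.931). Myc, an early response gene of growth, ran from 403 to 456 in control_blank and 1923 to 2589 in acute_VCV. Junb was most like Ppp1r15a (0.962), Maff (0.916), Nuak2 (0.915), Plaur (0.904) and Myc (0.901). Egr1 was nearest to Jun (0.863), Ppp1r15a (0.859) and Btg2 (0.841), and Jun to Med26 (0.866) and Egr1. Fos was nearest to Egr1 (0.779), Jun (0.759) and Dusp1 (0.754), the phosphatase that switches off MAP kinases. Atf3 was nearest to Srf (0.897), Slc25a25 (0.89) and Csrnp1 (0.877), and Egr2 to Srf (0.801) and Cd83 (0.793).

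Within groups, that is with group means removed over the 28 libraries, the closest pairs among the members were Junb with Atf3 (r = 0.887), Fosl1 with Atf3 (0.862), Junb with Egr1 (0.852), Fosl1 with Egr2 (0.842), Fos with Egr1 (0.841) and Fos with Jun (0.819). Without chronic_VCV_067, Fos with Egr1 (0.792) and Fos with Jun (0.788) were little changed, as was Junb with Jun (0.755 and 0.767). Fosl1 with Atf3 dropped to 0.59 and Egr1 with Egr2 from 0.617 to 0.15. Fosl1 with Fos was 0.265 with the library and -0.222 without it. Jund with the other 7 genes had r between -0.262 and 0.17, and between -0.483 and -0.326 without chronic_VCV_067.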

How the data were processed

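RNA-seq of 28 rat lung libraries was analysed from the table the authors deposited. Its unit is a signal: each deposited value is a read count over the size factor of its library. Reads were processed with CASAVA 1.8.0, BWA, bedtools 2.11 and DESeq 1.8.3 on build rn4, per the submitters' processing notes, with gene models of Ensembl version 67, per the file header. Whole reads were recovered from the deposited signal for 100.0% of values within 0.1 read, giving 6024093 to 31923838 reads per library. Of 17002 genes, 489 had no name. No pair of replicates agreed within sampling noise (37 pairs, smallest chi-square per gene 13.5).

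The main test was limma 3.58.1 (R 4.3.3) on log2(value + 1), fitted with 8 group means, robust settings and a trend on intensity, over the 14908 genes with a mean of at least 10. P-values were adjusted by Benjamini-Hochberg within a comparison at 0.05. It was tested on simulated data. Alternatives were a pseudocount of 10, no filter, quantile normalisation, edgeR 4.0.16 and DESeq2 1.42.0 on the recovered reads, the compared groups alone, each library left out, the number series as a covariate or within series 15, and the 2 control_chronic libraries of lowest depth left out. Tables and plots were made with Python 3.11.15 (pandas 2.3.3, numpy 2.4.6, matplotlib 3.10.9).

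The 10 genes and the lists were chosen with earlier results of these data known. Every gene of the 10 that was found is described. Of each list, up to 3 genes past the threshold in a direction are named by size of change, given a group mean of 50 or more on the higher side, and for each member the 5 genes most like it and the 3 most like it with group means removed could be named; some genes that this rule names are not reported here. The counts and values of list genes without chronic_VCV_067 were chosen after seeing the data.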

Additional observations from a re-analysis of the deposited data

Results flagged for a closer look

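Of 32 tests of whether an effect differed between conditions (4 differences for each of 8 genes), 5 passed the threshold. Of all tested genes, the mode effect differed for 39% (acute minus uninjured) and 29.7% (chronic minus uninjured). The effect of constant ventilation differed for 23.9% and that of variable ventilation for 2.66% (both chronic minus uninjured). The difference between variable and constant ventilation was lower in chronically injured than in uninjured lungs for Fosl1 (-4.04), Junb (-1.46), Jund (-4.90) and Egr1 (-2.98), all in log2(value + 1). Junb and Egr1 no longer passed without chronic_VCV_067, and with the number series as a covariate none of the 4 passed. The difference between variable ventilation and none was lower in chronically injured than in uninjured lungs for Jund (-4.21). The libraries of that contrast come from series 14 and 18 for chronic injury and 15 and 12 for none, so series and condition cannot be told apart there. In the 24 sets of 4 or 5 libraries tested for a library far from the rest of its group, none was found, where chance gives about 1 in 20. Groups of 3, among them chronic_VCV, were not tested for this.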

How the results depend on the processing

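No paired analysis was possible because library numbers never repeat between groups. Over the alternatives, 0 called member results changed sign, and 0 uncalled ones passed the threshold in the opposite direction. Some uncalled differences did change sign, such as Fos in chronic injury without ventilation (0.51, lowest alternative -0.25). Of 32 called results, 20 were lost in at least 1 alternative (363 of 465 values kept the call and 102 did not), and of 1743 values of the 112 results that were not called, 64 passed. The number of the 8 genes called, with every library, moved as follows. For chronic injury without ventilation it was 0, and 2 with DESeq2 and with the compared groups alone (0 to 1 leaving out a library). For constant ventilation of uninjured lungs it was 1, and 2 with DESeq2 and 3 with the compared groups alone (0 to 3); for variable ventilation of uninjured lungs 3 (1 to 3). Acute injury with constant ventilation gave 4 (2 to 5). Acute injury under constant ventilation gave 3, and 6 with the compared groups alone; under variable ventilation it gave 1 (1 to 2). Constant ventilation after chronic injury gave 2, and 4 with edgeR and 5 with DESeq2. Variable ventilation after chronic injury gave 2, and 1 with a pseudocount of 10, with edgeR and without the 2 control_chronic libraries of lowest depth (1 to 2). Chronic injury under constant ventilation gave 2, and 4 with edgeR, 5 with DESeq2, and 0 with the series as a covariate and within series 15 (0 to 4, 0 without chronic_VCV_067). Chronic injury under variable ventilation gave 1, and 0 with the covariate (0 to 1). Mode in uninjured lungs gave 1, and 0 with the covariate and within series 15 (0 to 1). Mode after chronic injury gave 3, and 5 with edgeR, 6 with DESeq2, and 0 with the compared groups alone and with the covariate (0 to 5, 0 without chronic_VCV_067 and without either of 2 chronic_noisy libraries). The difference in mode effect, acute minus uninjured, gave 0, and 1 with the compared groups alone (0 to 1). That for chronic minus uninjured gave 4, and 2 with the compared groups alone and 0 with the covariate (2 to 6). The difference in the effect of constant ventilation gave 0, and 2 with edgeR and 3 with DESeq2 (0 to 2), and that of variable ventilation 1, and 2 with the compared groups alone. The causes were not tested. The share of all tested genes called by each of these fits is not given here. The counts therefore do not set the 8 genes apart from other genes. Counts over all tested genes moved too: chronic injury under constant ventilation called 245 higher and 122 lower, and 1 and 1 without chronic_VCV_067. Fosl1 had 8 reads in its shallowest case, which limits its small differences among uninjured groups.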
